A study of Mus musculus with 2 samples.

Results

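The genes described here are 9 members of the interleukin-6 signalling axis, chosen by name for their known roles: the ligands Osm, Il6 and Lif, the receptor chains Osmr, Il6ra, Il6st and Lifr, the transcription factor Stat3 and the feedback inhibitor Socs3. The choice was made with earlier results of these data known. All 9 were present among the 22480 gene symbols of the deposited tables. They were followed through 2 single-cell libraries of mouse spinal cord, 1 taken 3 days post injury (3 dpi) and 1 from sham animals. Each library pooled 5 male and 5 female C57BL/6 mice aged 8 weeks, with no genetic change or drug named, and came from 8 mm of cord around the injured level; the sources used here do not say how the cord was injured. Each group was therefore 1 library, so there was no replicate and no test, and library and injury cannot be told apart.

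Cytokines of this family bind a receptor chain of their own, which pairs with the shared signal-transducing chain gp130, the product of Il6st. Oncostatin M, from Osm, signals in mice mainly through gp130 with the chain made by Osmr, interleukin-6 through Il6ra, and leukaemia inhibitory factor through Lifr. The paired receptors activate Janus kinases, which phosphorylate STAT3, and STAT3 in turn raises transcription of Socs3, whose product binds gp130 and damps the signal. After cord injury this axis is known chiefly from reactive astrocytes and infiltrating immune cells.

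The 3 dpi library held 149291783 unique molecular identifiers (UMIs, counted RNA molecules) in 13594 barcodes, with a median of 9117 per barcode, against 76889038 UMIs in 10138 barcodes and a median of 5522 in the sham library. A total of 39 barcode sequences occurred in both. After filters and removal of called doublets, 12108 cells at 3 dpi and 9306 cells in sham were kept, clustered together and named from marker genes as "X-like". For levels, the UMIs of a gene were summed over the cells of 1 class in 1 library and divided by 1000000 UMIs of all genes in those cells (CPM). Brackets hold 95% intervals, which cover counting error only and leave out the spread between cells, mice and libraries. Astrocytes, the cell type best known for this axis in the injured cord, formed no class of their own at the resolution of 1.0 used; at a resolution of 2.0 a cluster of 21 cells at 3 dpi and 12 in sham took the astrocyte name. The nearest class, ependymal-like, had 89 cells at 3 dpi and 38 in sham and also carried astrocyte markers: its marker score was 4.75 for ependymal cells and 3.74 for astrocytes, and it stayed unnamed in 4 of 5 other clusterings. Neuron-like cells numbered 11 at 3 dpi and 21 in sham.

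Over whole libraries, the ligands were higher at 3 dpi, and 3 of the 4 receptor chains were lower by over 1.4-fold. Osm had 74.5 CPM at 3 dpi and 18.9 CPM in sham, a ratio of 3.93 [3.71 to 4.18]. Il6 had 2.99 CPM at 3 dpi and 1.51 CPM in sham, a ratio of 1.98 [1.58 to 2.49]. Lif had 3.09 CPM at 3 dpi and 0.0757 CPM in sham, where 5 UMIs were counted, a ratio of 40.8 [17.3 to 126]. For each ligand the interval of the ratio lay above 1. Among receptor chains Lifr stood apart, with 9.04 CPM at 3 dpi and 51.6 CPM in sham, which made it 5.71-fold [5.33 to 6.11] lower. Il6ra had 19.0 CPM at 3 dpi and 35.8 CPM in sham, Il6st 44.6 CPM at 3 dpi and 62.6 CPM in sham, and Osmr, which differed least of the 4 chains, 9.95 CPM at 3 dpi and 11.7 CPM in sham. Stat3 had 118 CPM at 3 dpi and 94.7 CPM in sham, and Socs3 had 224 CPM at 3 dpi and 282 CPM in sham. These library values mix cell classes whose shares differed between the libraries, so the genes are given below by class.

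**Figure D1:**
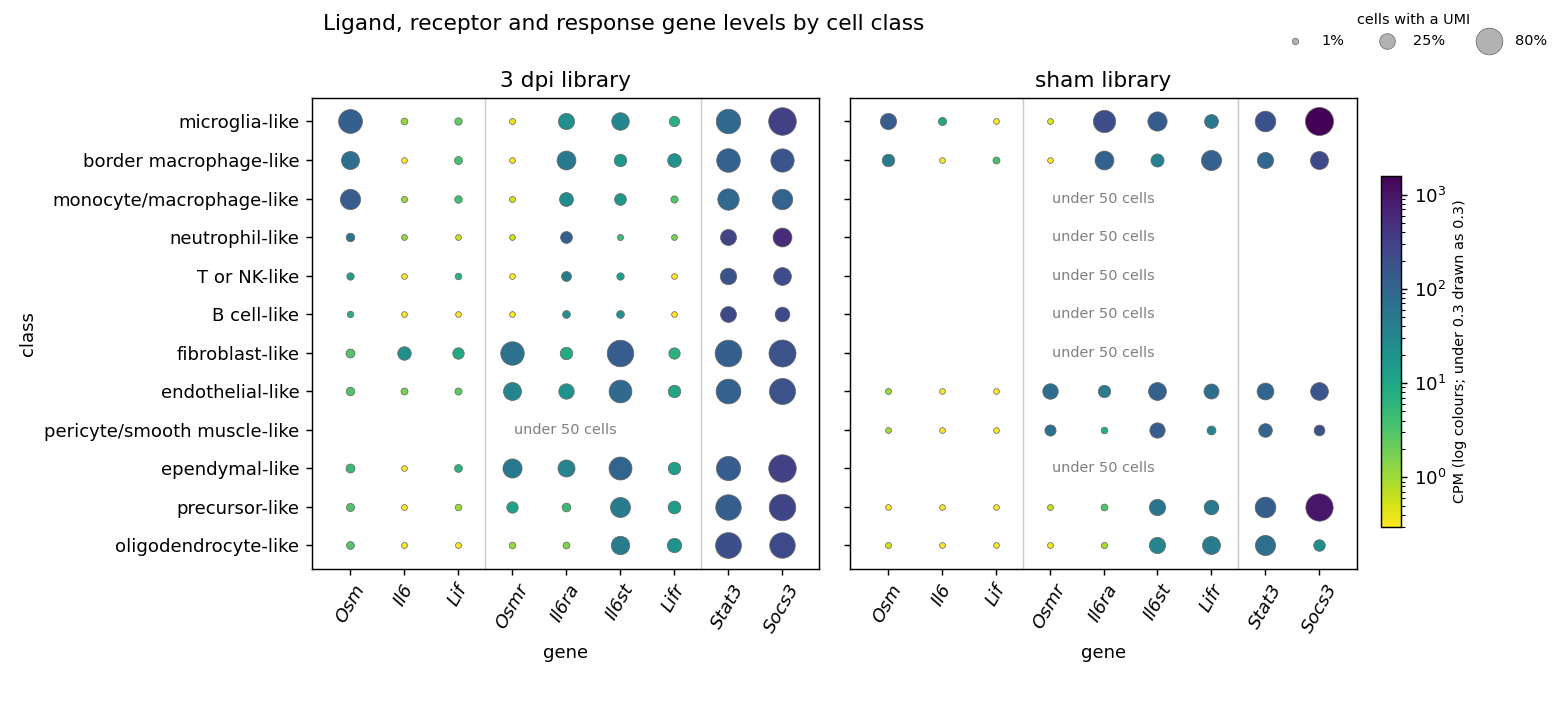
Level of each of the 9 genes by cell class, with the 3 dpi library on the left and the sham library on the right; colour gives CPM on a log scale and the area of a point the percent of cells with at least 1 UMI. Classes under 50 cells in a library are not drawn. Osm is highest in microglia-like, monocyte/macrophage-like and border macrophage-like cells and Osmr in fibroblast-like, ependymal-like and vascular cells.

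Osm RNA came almost wholly from myeloid cells. At 3 dpi, monocyte/macrophage-like cells had 130 CPM [126 to 134] and microglia-like cells 124 CPM [121 to 128], and the ratio of these levels was 1.04 [0.9995 to 1.09]. The levels of both classes thus lay next to each other without a separation beyond counting error. Microglia-like cells held 51.2% and monocyte/macrophage-like cells 45.5% of the Osm UMIs in kept 3 dpi cells. In sham, microglia-like cells held 93.9% at 129 CPM [122 to 137]. The CPM of microglia-like cells differed by less than counting error between the libraries. The share of the library in these classes differed: of the UMIs of all genes in kept cells, microglia-like cells held 37535889 of 122446605 at 3 dpi and 9073733 of 66078530 in sham, and monocyte/macrophage-like cells numbered 3868 at 3 dpi and 11 in sham.

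Border macrophage-like cells, with Mrc1 and Cbr2 among their leading genes, came next. They had Osm at 73.8 CPM [53.0 to 100.2] on 41 UMIs at 3 dpi and 45.4 CPM [23.5 to 79.3] on 12 UMIs in sham. Neutrophil-like cells had 55.5 CPM [44.9 to 67.8] at 3 dpi, an interval that overlapped that of border macrophage-like cells. The 15 neutrophil-like cells of sham had 466 CPM on 19 UMIs, spread over 10 of the 15 cells, and the ratio of 3 dpi over sham was 0.119 [0.0722 to 0.206]. Outside the myeloid classes Osm stayed at 13.5 CPM or less at 3 dpi in every class with 50 cells, T or NK-like cells being highest on 2 UMIs. Oligodendrocyte-like cells had an Osm UMI in 3.37% of cells at 3 dpi (median depth 9229 UMIs) and 0.507% in sham (7565 UMIs). Their level was 3.02 CPM at 3 dpi and 0.552 CPM in sham, a ratio of 5.47 [3.30 to 9.31]. With 5% of the class taken as free RNA and subtracted, it was 0 CPM in both libraries. The part of free RNA in these values was not tested.

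The share of microglia-like cells with an Osm UMI was 63.0% at 3 dpi and 27.2% in sham, but these cells had a median of 13714 UMIs at 3 dpi and 3821 in sham. With each cell thinned to 1000 UMIs, which left out 24 cells at 3 dpi and 80 in sham, the shares were 11.3% at 3 dpi and 10.4% in sham. At equal depth the shares thus lay close together, as the CPM values did. Summed over 12 immediate early and heat shock genes, microglia-like cells had 3187 CPM at 3 dpi and 30310 CPM in sham. The part of this difference in the Osm levels was not tested. Within the monocyte/macrophage-like class, 2 large clusters both had Arg1 and Pf4 among their 10 leading genes. The one that also had Gpnmb and Spp1 there had Osm at 138 CPM [133 to 143], and the one that also had Chil3 and Ccl9 had 130 CPM [121 to 139]. The cluster led by MHC class II genes had 75.6 CPM [66.5 to 85.5], below both.

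Il6 was rare in both libraries, and different classes carried most of it. At 3 dpi, fibroblast-like cells had 21.98 CPM [19.4 to 24.8] and held 72.4% of the Il6 UMIs in kept cells, 265 of 366. The next class, endothelial-like, had 1.65 CPM, and microglia-like cells 1.23 CPM, 17.9-fold [13.1 to 25.1] below fibroblast-like cells. The RNA sat in a minority of fibroblast-like cells: 114 of 648 cells, 17.6% [14.7 to 20.7], had an Il6 UMI, the highest cell had 16, and the 10 highest cells held 89 of the 265. Both fibroblast-like clusters carried it, at 33.1 CPM [26.8 to 40.5] in the cluster led by Dcn and Tagln and 18.5 CPM [15.8 to 21.5] in the cluster led by Mgp and Col1a2. The sham library had 19 fibroblast-like cells with 0 Il6 UMIs, too few to compare.

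In sham, 88 of the 100 Il6 UMIs in kept cells lay in microglia-like cells, at 9.70 CPM [7.78 to 11.9], against 1.23 CPM [0.897 to 1.64] at 3 dpi, which made the level 7.91-fold [5.48 to 11.6] lower at 3 dpi. These 88 UMIs lay in 86 cells, so they did not rest on a few cells. All 9 Il6 UMIs of the 11 monocyte/macrophage-like cells in sham lay in 1 cell. Neither microglia-like value reached 20 CPM, the level set for counting a gene as measured in a comparison.

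Lif had 378 UMIs in kept cells at 3 dpi and 5 in sham. Fibroblast-like cells had the highest 3 dpi level, 9.45 CPM [7.80 to 11.4], above monocyte/macrophage-like cells at 4.03 CPM [3.36 to 4.79] and microglia-like cells at 2.34 CPM [1.88 to 2.89]. By count, monocyte/macrophage-like cells held 129 of the 378 UMIs, fibroblast-like cells 114 and microglia-like cells 88. Ependymal-like and T or NK-like cells lay between, at 6.43 and 6.75 CPM, but on 8 UMIs and 1 UMI. Within the monocyte/macrophage-like class Lif differed by cluster: it was 12.9 CPM [10.4 to 16.0] in the Chil3 and Ccl9 cluster and 1.45 CPM [0.991 to 2.05] in the Gpnmb and Spp1 cluster, whose Osm levels lay close together. In microglia-like cells the 88 UMIs at 3 dpi stood against 1 in sham, a ratio of 21.3 [3.72 to 849.7], and in endothelial-like cells 18 UMIs at 3 dpi stood against 0 in sham, at least 5.18-fold higher against a floor of 3 counts for the class, with 3.80 as the lower limit of the exact interval of the ratio.

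**Figure D2:**
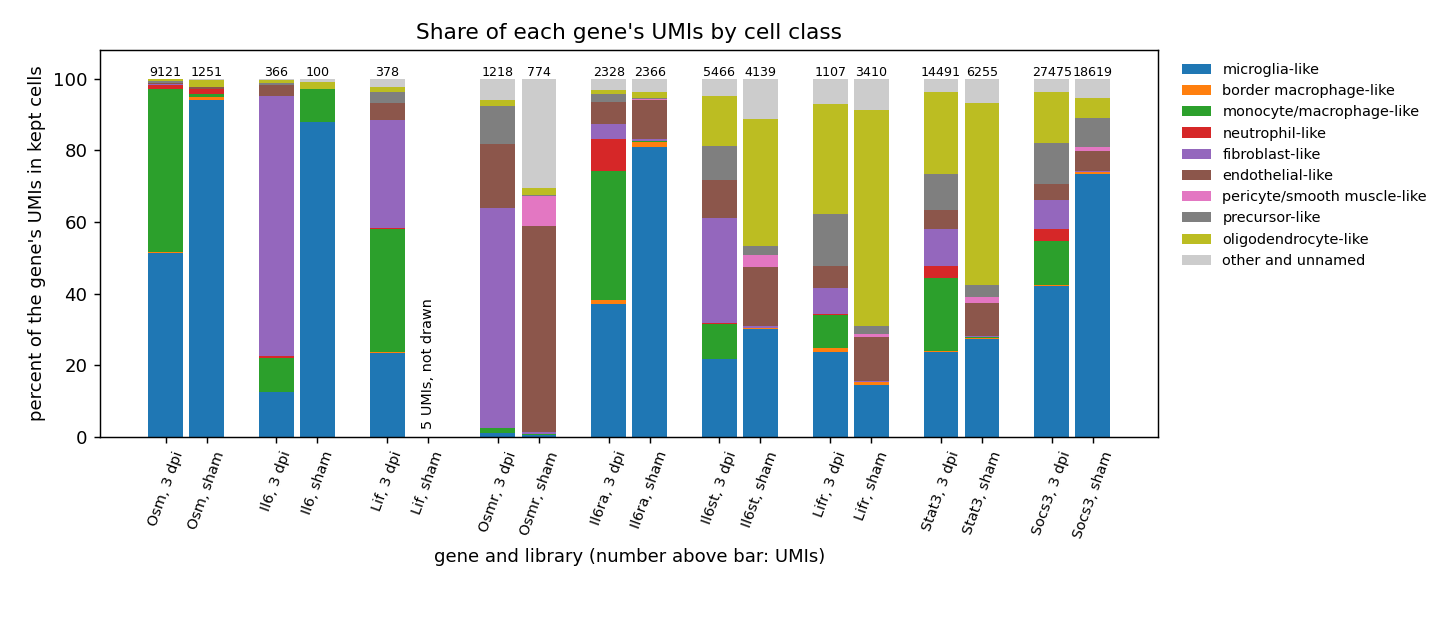
Percent of the UMIs of each gene in kept cells that lay in each cell class, with the 3 dpi bar left of the sham bar and the number of UMIs above each bar. Osm at 3 dpi divides between microglia-like and monocyte/macrophage-like cells, and most Il6 and Osmr UMIs at 3 dpi lie in fibroblast-like cells.

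The oncostatin receptor chain Osmr had the opposite cell distribution to its ligand. At 3 dpi, fibroblast-like cells had 62.0 CPM [57.6 to 66.6] and held 61.3% of the Osmr UMIs, ependymal-like cells had 49.1 CPM [37.5 to 63.0] and endothelial-like cells 32.6 CPM [28.4 to 37.2]. The intervals of the first 2 classes overlapped, and endothelial-like cells lay below both. Microglia-like cells had 0.373 CPM, 166-fold [98.4 to 305] below fibroblast-like cells, and monocyte/macrophage-like cells had 0.4998 CPM. Outside the leukocyte-like classes (monocyte/macrophage, neutrophil, T or NK and B cells) lay 98.6% of the Osmr UMIs at 3 dpi, while those classes held 46.6% of the Osm UMIs. Border macrophage-like, B-like and T or NK-like cells had 0 Osmr UMIs at 3 dpi, in 55, 93 and 78 cells, which, with 3 cells taken as the limit of a count of 0, allows a share of cells with a UMI of up to 5.45%, 3.23% and 3.85% in that order.

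In sham, Osmr lay in vessels: endothelial-like cells had 77.1 CPM [70.1 to 84.6], pericyte/smooth muscle-like cells 63.4 CPM [49.0 to 80.7] and an unnamed cluster with markers of both 74.2 CPM. The levels of the endothelial-like and pericyte/smooth muscle-like classes overlapped. Endothelial-like Osmr was 2.37-fold [2.01 to 2.80] lower at 3 dpi, at 32.6 CPM against 77.1 CPM in sham. Precursor-like cells, which carry markers of oligodendrocyte precursors, had 129 Osmr UMIs in 102 of 890 cells at 3 dpi (11.3 CPM [9.44 to 13.4]). The 292 cells of sham had 1 UMI (0.642 CPM), and the ratio of 3 dpi over sham was 17.6 [3.11 to 701]. Neither level reached the 20 CPM set for a measured gene. A cluster with 878 cells at 3 dpi and 26 in sham, and another with 12 and 266, made up this class. The first had Mt3, Tm4sf1 and Fabp7 among its 10 leading genes, as the ependymal-like cluster did. The part of such differences between clusters in this ratio was not tested. The share of precursor-like cells with an Osmr UMI at 3 dpi was 11.46% [9.44 to 13.7] at a median depth of 11386 UMIs, against 0.494% of microglia-like cells of the same library at 13714 UMIs. In ependymal-like cells Osmr had 49.1 CPM on 61 UMIs at 3 dpi and 9.20 CPM on 4 UMIs in the 38 cells of sham, a ratio of 5.33 [1.98 to 20.2].

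Il6ra, the interleukin-6 binding chain, had its highest level in neutrophil-like cells at 3 dpi and in microglia-like cells in sham. By share, microglia-like cells held 37.0%, monocyte/macrophage-like cells 36.0% and neutrophil-like cells 8.89% of the Il6ra UMIs in kept 3 dpi cells. Sham microglia-like cells had 211 CPM [202 to 221] and held 81.0% of the Il6ra UMIs of that library, 4.70-fold [4.12 to 5.37] above endothelial-like cells. At 3 dpi, neutrophil-like cells had the highest level, 121 CPM [105 to 138], 5.27-fold [4.51 to 6.14] above microglia-like cells at 22.9 CPM [21.4 to 24.5]. Border macrophage-like cells at 50.4 CPM and T or NK-like cells at 47.2 CPM came next, with overlapping intervals. Oligodendrocyte-like cells had 1.51 CPM at 3 dpi and 0.874 CPM in sham, the lowest Il6ra level among named classes with 50 cells in each library.

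Il6st, the shared chain gp130, was found in most classes. At 3 dpi it was highest in fibroblast-like cells at 134 CPM [127 to 140] and ependymal-like cells at 101.3 CPM [84.4 to 121], intervals that did not overlap, followed by endothelial-like cells at 86.4 CPM [79.5 to 93.8]. Neutrophil-like cells, which led for Il6ra, had the lowest Il6st level, 4.67 CPM [2.02 to 9.20] on 8 UMIs. In sham, microglia-like cells at 138 CPM, pericyte/smooth muscle-like cells at 134 CPM and endothelial-like cells at 120 CPM shared the top of the order, and each overlapped the next.

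Lifr, the chain for leukaemia inhibitory factor, had lower levels at 3 dpi than in sham in each of the 5 classes with 50 cells in both libraries. Its levels at 3 dpi and in sham were 20.7 and 47.3 CPM in oligodendrocyte-like cells, 7.01 and 54.0 CPM in microglia-like cells and 10.4 and 72.9 CPM in endothelial-like cells. In the same order they were 13.9 and 48.2 CPM in precursor-like cells and 19.8 and 113 CPM in border macrophage-like cells, where 11 UMIs were counted at 3 dpi and 30 in sham. The 3 dpi over sham ratio ranged from 0.1297 in microglia-like to 0.437 in oligodendrocyte-like cells. No named class with 50 cells passed 21 CPM at 3 dpi. Lifr was the only member that met the 2-fold rule given below in 4 classes.

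The comparison between libraries was made within the 5 classes with at least 50 cells in each: oligodendrocyte-like (1452 cells at 3 dpi, 4343 in sham), microglia-like (2629 and 2182), endothelial-like (383 and 1403), precursor-like (890 and 292) and border macrophage-like (55 and 55). In the first 4, different clusters held the cells of the 2 libraries, among them 2 microglia-like clusters with 1805 and 753 cells at 3 dpi and 1 with 2076 cells in sham. A cluster from 1 library can mark that library as well as a cell state. Summed oligodendrocyte markers had 288 CPM at 3 dpi and 13850 CPM in sham in border macrophage-like cells. In the same order they had 278 and 2071 CPM in microglia-like cells and 336 and 2312 CPM in endothelial-like cells. In precursor-like cells they had 482 and 2276 CPM. The part of this marker RNA in the 3 dpi over sham ratios was not tested. A gene was counted as measured at 20 CPM in at least 1 library and called once its ratio, after adding 10 CPM to each level, passed 2-fold in either direction, which is a rule of size and not a test. Of the 45 pairs of member and class, 26 were measured, 2 were higher at 3 dpi, 9 were lower, and 15 lay within 2-fold.

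Both higher pairs lay in oligodendrocyte-like cells, Stat3 and Socs3, 2 of 4 members measured there, where 4.8% of 6250 measured genes passed 2-fold upwards and 3.81% downwards. In microglia-like cells Il6ra, Il6st, Lifr and Socs3 were lower, 4 of 6, where 16.5% of 6209 genes were lower and 11.7% higher. In endothelial-like cells Osmr and Lifr were lower, 2 of 6, where 13.7% of 7043 genes were lower and 8.33% higher. In precursor-like cells Lifr and Socs3 were lower, 2 of 4, where 13.3% of 8141 genes were lower and 7.14% higher. In border macrophage-like cells Lifr was lower, 1 of 6, close to the 14.3% of 6761 genes that were lower there, with 11.1% higher. The median log2 ratio of the measured members was 0.85 in oligodendrocyte-like cells, -1.87 in microglia-like, -0.63 in endothelial-like, -0.81 in precursor-like and -0.67 in border macrophage-like cells. Over all measured genes of the same classes it was -0.05, -0.15, -0.26, -0.26 and 0.02, in that order.

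Il6ra, Il6st and Lifr were lower together in microglia-like cells, where Osmr was too low to be measured, at 0.373 CPM at 3 dpi and 0.441 CPM in sham. Il6ra had 22.9 CPM at 3 dpi and 211 CPM in sham, 9.21-fold [8.49 to 9.99] lower, Il6st had 31.5 CPM at 3 dpi and 138 CPM in sham, 4.37-fold [4.03 to 4.74] lower, and Lifr was 7.71-fold [6.62 to 8.99] lower. Stat3 in these cells had 90.9 CPM at 3 dpi and 188 CPM in sham, a log2 ratio of -0.97, just within 2-fold, which passed 2-fold at -1.03 with 5% free RNA subtracted and at -1.04 with 1 CPM added. Osm, the ligand, had a log2 ratio of -0.05 there, which was above 0 under 2 of 8 other settings. Summed markers of monocytes and macrophages were 4473 CPM in microglia-like cells at 3 dpi, with 10 of 10 genes seen, and 382 CPM in sham, with 7 of 10 seen and Ly6c2, Chil3 and Arg1 at 0. They were 27991 CPM in monocyte/macrophage-like cells at 3 dpi, and summed microglia markers were 5785 CPM in microglia-like cells at 3 dpi and 21374 CPM in sham. The part of either marker sum in these ratios was not tested.

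Stat3, the transcription factor that carries the signal to the nucleus, had 200.5 CPM [194 to 207] in oligodendrocyte-like cells at 3 dpi and 73.0 CPM [70.5 to 75.6] in sham, a ratio of 2.75 [2.62 to 2.88]. Of the named classes with 50 cells at 3 dpi, only neutrophil-like cells, at 281 CPM [257 to 308], and B-like cells, at 239 CPM on 32 UMIs, had higher Stat3, and the interval of B-like cells overlapped that of oligodendrocyte-like cells. In sham, oligodendrocyte-like cells had the lowest Stat3 level of the 6 named classes with 50 cells, though the interval of border macrophage-like cells overlapped theirs. In endothelial-like cells Stat3 had 113 CPM at 3 dpi and 101.2 CPM in sham, and in precursor-like cells 129 CPM in each library. Stat3 levels of the large oligodendrocyte-like clusters did not overlap between libraries: they were 158 and 227 CPM at 3 dpi and 64.4, 68.5, 75.8 and 84.7 CPM in sham.

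Socs3 encodes the feedback inhibitor that STAT3 is known to induce, and its promoter is shown because it was the only one among the members that held the palindrome TTCNNNGAA, a pattern known to be bound by STAT factors. RefSeq listed promoters for 8 of the 9 members, Osm being the one without, and 9 promoters in all. The 250 bases before the start of Socs3, on the minus strand of mouse GRCm38.p6 at chr11:117969367-117969616, are given 5′ to 3′ with the match in capitals:

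Socs3: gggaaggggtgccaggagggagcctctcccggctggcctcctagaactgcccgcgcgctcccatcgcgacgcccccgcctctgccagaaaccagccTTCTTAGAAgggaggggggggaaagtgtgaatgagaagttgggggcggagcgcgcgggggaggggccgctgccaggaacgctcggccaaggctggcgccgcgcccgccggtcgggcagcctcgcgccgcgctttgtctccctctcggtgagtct

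The match covers bases 97 to 105 of this run and begins 154 bases before the start. The pattern reads the same on both strands, so 1 search covers both, and no other motif was searched. It occurred in 2726 of 32851 RefSeq promoters of 300 bases, 8.3%, beside 1 of 9 among the members. None of the 18 promoters listed for 14 of the genes known to respond to STAT3 held it. A match is a description of letters, not a shown site, and an absent match says nothing of a factor.

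In oligodendrocyte-like cells Socs3 had 238 CPM [230 to 245] at 3 dpi and 23.8 CPM [22.3 to 25.2] in sham, a ratio of 10.0 [9.34 to 10.7]. A Socs3 UMI was seen in 1057 of 1452 of these cells at 3 dpi and 521 of 4343 in sham, and in 20.4% at 3 dpi and 1.98% in sham after thinning to 1000 UMIs. Both large oligodendrocyte-like clusters of the 3 dpi library were high, at 283 and 213 CPM, as was an unnamed cluster led by Syt4 and Gpd1 at 247 CPM. The 4 large sham clusters had 36.9, 23.9, 17.4 and 12.5 CPM, so every cluster at 3 dpi lay above every one of these in sham. Monocyte and macrophage markers in this class summed to 385 CPM at 3 dpi and 17.2 CPM in sham, microglia markers to 171 CPM at 3 dpi and 161 CPM in sham, and Ly6c2 was at 0 in sham. With 5% of the class taken as free RNA and subtracted, the log2 ratio was 3.61, against 2.87 without.

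Socs3 ran the other way in microglia-like and precursor-like cells. Microglia-like cells had 307 CPM [302 to 313] at 3 dpi and 1508 CPM [1483 to 1534] in sham, 4.91-fold [4.79 to 5.03] lower. Precursor-like cells had 274 CPM [265 to 284] at 3 dpi and 994 CPM [946 to 1045] in sham, 3.62-fold [3.41 to 3.85] lower. Endothelial-like cells had 184 CPM [174 to 195] at 3 dpi and 174 CPM [163 to 185] in sham, a difference within counting error. Border macrophage-like cells had 169 CPM at 3 dpi and 238 CPM in sham, within 2-fold, on 94 UMIs at 3 dpi and 63 in sham. Microglia-like Socs3 was 1.29-fold [1.25 to 1.34] that of oligodendrocyte-like cells at 3 dpi and 63.5-fold [59.6 to 67.7] in sham, so the classes stood much closer at 3 dpi.

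The same classes also differed between libraries in 12 immediate early and heat shock genes, such as Fos, Jun and Hspa1a, which are known to be induced when cells are taken out of tissue. Their summed level was 3187 CPM at 3 dpi and 30310 CPM in sham in microglia-like cells, 4228 CPM at 3 dpi and 16444 CPM in sham in precursor-like cells, and 5742 CPM at 3 dpi and 16740 CPM in sham in endothelial-like cells. It was 3096 CPM at 3 dpi and 12027 CPM in sham in border macrophage-like cells. In oligodendrocyte-like cells the sums were nearly equal, 2482 CPM at 3 dpi and 2538 CPM in sham. Of these early genes, 11 of 11 measured were lower in microglia-like cells, 8 of 11 in precursor-like, 10 of 12 in endothelial-like and 11 of 11 in border macrophage-like cells, and 0 of 11 in oligodendrocyte-like cells, where 1 was higher. Their part in the Socs3 levels of these classes, and in the Osm and Il6 levels of microglia-like cells, was not tested. Socs3 was 10.0-fold higher in oligodendrocyte-like cells beside near-equal early gene sums. It lay within 2-fold in endothelial-like and border macrophage-like cells, where the sums were lower at 3 dpi.

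**Figure D3:**
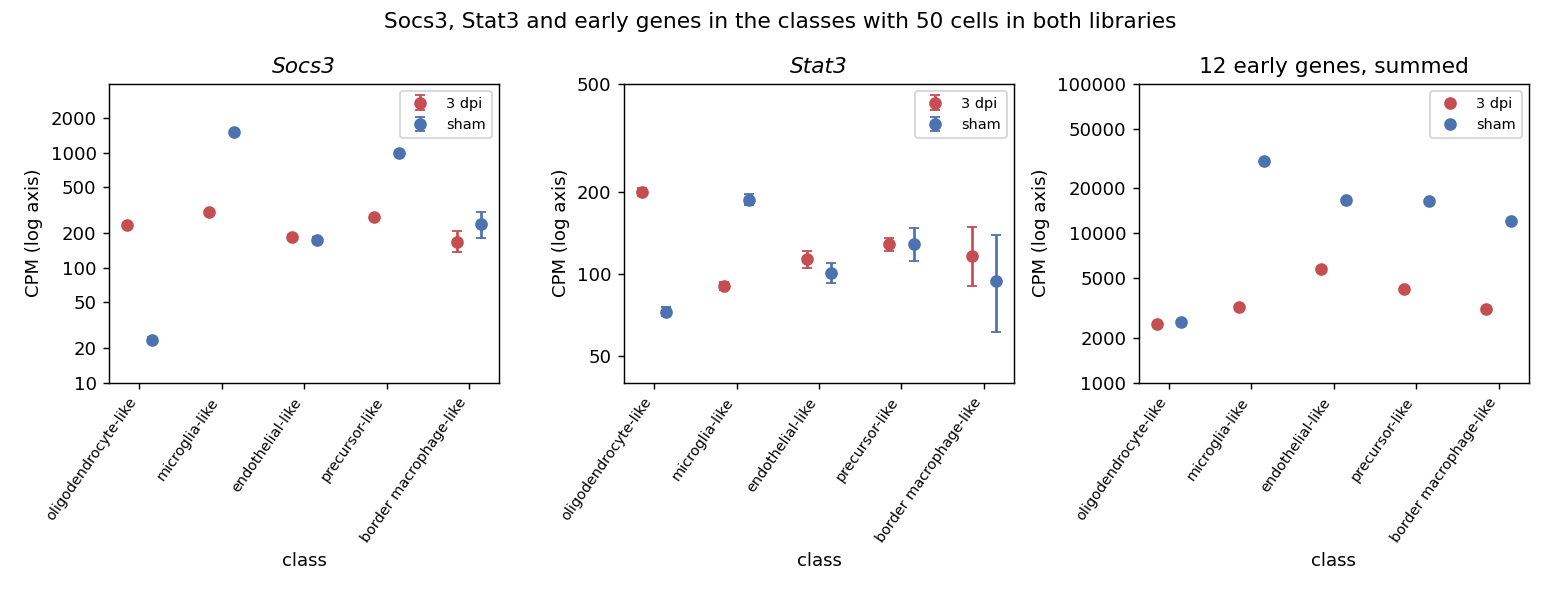
Level of Socs3, of Stat3 and of 12 early genes summed, in CPM on log axes, for the 5 classes with 50 cells in both libraries; red points are 3 dpi, blue points sham, and bars on Socs3 and Stat3 are 95% counting intervals. Socs3 is higher at 3 dpi in oligodendrocyte-like cells and lower in microglia-like and precursor-like cells. It lies within 2-fold in endothelial-like and border macrophage-like cells. The early gene sums are near equal in oligodendrocyte-like cells and lower at 3 dpi in the other classes drawn.

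In the classes without 50 sham cells, Socs3 at 3 dpi was highest in neutrophil-like cells at 561 CPM [526 to 598], 1.83-fold [1.71 to 1.95] the level of microglia-like cells. Stat3 was also higher in neutrophil-like cells, at 281 CPM, than in microglia-like cells, at 90.9 CPM. The full order differed: among named classes with 50 cells, microglia-like cells ranked 2 for Socs3 and 11, the lowest, for Stat3. Neutrophil-like cells were shallow, with a median of 1038 UMIs, and the 15 in sham had Socs3 at 98.1 CPM on 4 UMIs, with early genes at 4421 CPM at 3 dpi and 7919 CPM in sham. Ependymal-like cells had Socs3 at 304 CPM [274 to 336] at 3 dpi and 950.3 CPM in the 38 cells of sham. Of the 413 Socs3 UMIs of those sham cells, 378 lay in 10 cells. Early genes in this class had 6423 CPM at 3 dpi and 14403 CPM in sham. Fibroblast-like cells had Socs3 at 182 CPM [175 to 190] at 3 dpi. The 19 in sham had 782 CPM on 73 UMIs, which lay in 7 cells. Early genes in fibroblast-like cells had 5076 CPM at 3 dpi and 11907 CPM in sham. Of the named classes with 50 cells, monocyte/macrophage-like cells had the lowest Socs3 level at 3 dpi, 106 CPM [102 to 109].

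Other genes of the pathway gave context for the members. Among the other ligands of the family, Il11, a gp130 ligand, was higher in endothelial-like cells at 26.7 CPM at 3 dpi and 0.521 CPM in sham on 3 UMIs, a ratio of 51.3 [17.3 to 251], and had its highest 3 dpi level in fibroblast-like cells at 76.7 CPM. Clcf1, which encodes cardiotrophin-like cytokine, was lower in microglia-like cells at 4.18 CPM at 3 dpi and 50.1 CPM in sham, as was Ebi3, a subunit of interleukin-27, at 9.03 CPM at 3 dpi and 32.1 CPM in sham. In oligodendrocyte-like and in precursor-like cells 1 of 1 measured gene among these other ligands was higher. Of all measured genes, 4.8% and 7.14% were higher there, in that order. The ligand Il31 had 0 UMIs in both libraries.

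Of 4 other receptor chains, Cntfr, for ciliary neurotrophic factor, was lower in precursor-like cells at 29.98 CPM at 3 dpi and 82.8 CPM in sham, and no other measured pair passed 2-fold. Of the Janus kinase and other STAT genes, none was higher in any of the 5 classes. In endothelial-like cells 2 of 6 measured were lower, beside 13.7% of all measured genes. Stat2, which carries interferon signals, was 1 of these 2, at 16.4 CPM at 3 dpi and 57.7 CPM in sham. Stat3 in the same cells lay within 2-fold. Of 8 other feedback and phosphatase genes, only Ptpn11 passed 2-fold, lower in border macrophage-like cells at 30.6 CPM at 3 dpi and 71.9 CPM in sham, on 17 UMIs at 3 dpi and 19 in sham.

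A list of 17 genes known to respond to STAT3 differed by class. The list was drawn up with earlier results of these data known, so its counts and medians are a description and no independent support for a STAT3 response. In oligodendrocyte-like cells 6 of 10 measured genes were higher and 0 lower, beside 4.8% higher and 3.81% lower of all measured genes, with a median log2 ratio of 1.83 against -0.05 over all measured genes. Serpina3n, a serine protease inhibitor, had 4329 CPM at 3 dpi and 12.7 CPM in sham there, and the transcription factor gene Cebpd had 212 CPM at 3 dpi and 17.3 CPM in sham. The transcription factor gene Cebpb and the cyclin gene Ccnd1 were higher too, at 102 CPM at 3 dpi and 4.32 CPM in sham and at 100.4 CPM at 3 dpi and 10.6 CPM in sham. The 3 dpi levels of Cebpb and Ccnd1 were 3.00% and 4.33% of those in the class where each was highest, and that of Timp1, a metalloproteinase inhibitor also among the 6, was 0.941%, and the part of free RNA in these values was not tested.

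In endothelial-like cells, where Socs3 lay within counting error, 9 of 14 measured genes of this list were higher and 1 lower, beside 8.33% and 13.7% of all measured genes, with a median of 1.42 against -0.26. Lrg1, a secreted glycoprotein of inflamed vessels, had 316 CPM at 3 dpi and 0.521 CPM in sham on 3 UMIs, a ratio of 607 [207 to 2946]. Bcl2l1, which encodes a survival protein, was the lower one, at 50.6 CPM at 3 dpi and 218 CPM in sham. Among microglia-like cells 3 of 13 genes of the list were higher and 4 were lower, beside 11.7% and 16.5% of all measured genes, at a median of 0.01 against -0.15. Saa3, an acute phase gene, had 204 CPM at 3 dpi and 0.992 CPM in sham, while Junb, itself an immediate early gene, had 931 CPM at 3 dpi and 6936 CPM in sham and Cebpd 46.0 CPM at 3 dpi and 242 CPM in sham.

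In precursor-like cells 3 of 12 genes of the list were higher and 2 lower, the lower share being near the 13.3% of all measured genes, of which 7.14% were higher, with a median of 0.42 against -0.26. Serpina3n had 1030 CPM at 3 dpi and 20.5 CPM in sham, and Bcl3, a modulator of NF-kB, had 33.3 CPM at 3 dpi and 0 UMIs in sham, at least 17.3-fold higher against the same floor, with 14.0 as the lower limit of the exact interval. The lower genes of the list were Junb, at 432 CPM at 3 dpi and 1864 CPM in sham, and Vegfa, which encodes a vascular growth factor, at 17.2 CPM at 3 dpi and 82.2 CPM in sham. In border macrophage-like cells 5 of 13 were higher and 2 lower, the lower share being near the 14.3% of all measured genes, of which 11.1% were higher, with a median of 0.57 against 0.02, on small counts. Serpina3n and Socs3 were thus both higher in oligodendrocyte-like cells, while in precursor-like cells Serpina3n was higher and Socs3 lower.

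**Figure D4:**
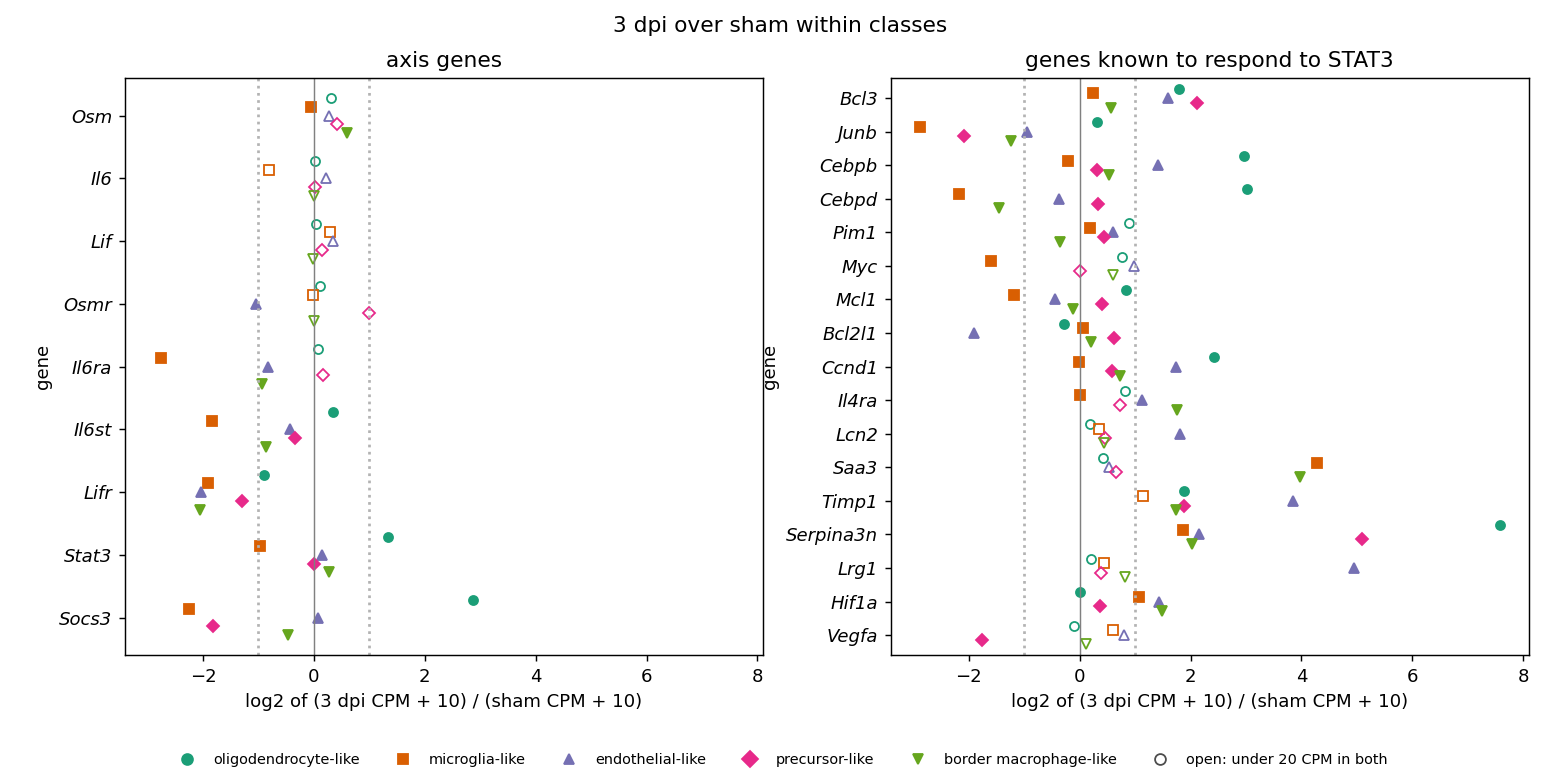
Log2 of (3 dpi CPM + 10) / (sham CPM + 10) for the 9 genes (left) and for 17 genes known to respond to STAT3 (right) in the 5 compared classes; open marks are under 20 CPM in both libraries and dotted lines mark 2-fold. Lifr lies left of 0 in all 5 classes, Socs3 is at 2.87 in oligodendrocyte-like and -2.26 in microglia-like cells, and Serpina3n lies right of 2-fold in oligodendrocyte-like and precursor-like cells.

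Genes with the most similar pattern were ranked by Pearson r of log2(CPM + 10) over the 17 sums of class and library with 50 cells, among 11763 genes. These sums share libraries, depth and cell lineage, so r is a description. Osm was most like Tlr2 (r = 0.977), Itgam (0.9747) and Slc37a2 (0.974), and Osmr most like Yap1 (0.988), Cavin1 (0.977) and Il17rc (0.953). Il6 was most like Serpinf1 (0.923), Postn (0.898) and Qprt (0.895), each highest in fibroblast-like cells at 3 dpi. Il6ra was closest to Lfng (0.903), Cflar (0.897) and Vsir (0.893), Il6st to Sparc (0.905), Fkbp9 (0.881) and Adamts1 (0.871), and Lifr to 3222401L13Rik (0.930), Dusp7 (0.911) and Trappc8 (0.892). The closest genes were less like the member for Stat3, with Uspl1 (0.811), Cebpz (0.796) and Mir142hg (0.766), for Lif, with Nipal1 (0.808), Lbp (0.776) and Reep4 (0.762), and for Socs3, with Smad3 (0.771), Jmjd1c (0.765) and Marcks (0.724).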

How the data were processed

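The authors deposited, for each library, a table of raw UMI counts per gene and barcode, as the whole numbers show. Per the submitters' processing notes, Cell Ranger and Seurat were used, and GRCh38, a human build, is named although the symbols are mouse symbols. Their cell filters are not given in the sources used here, and the tables held 0 mitochondrial rows.

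Cells needed 200 genes and 500 UMIs. Doublets were scored against 2 simulated doublets per cell, and the expected number (0.8% per 1000 cells) was removed: 1476 at 3 dpi (10.9%) and 820 in sham (8.10%). Both libraries were clustered together from 2000 variable genes, without the members, pathway lists and early genes, using Leiden clustering (resolution 1.0) and no batch integration. Clusters were named from marker lists (at least 3 markers 2-fold higher), which gave 13 named classes from 31 clusters, so cell names are rebuilt. UMIs were summed per class and library. Intervals are exact Poisson for CPM, Clopper-Pearson for shares and exact conditional for ratios. All 9 members and the 3 genes most like each were named; some other pathway genes are not reported here. The members, lists and markers were chosen with earlier results of these data known. Python 3.11.15, leidenalg 0.10.2 and scipy 1.17.1 were used.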

Additional observations from a re-analysis of the deposited data

Results flagged for a closer look

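Socs3 moved in opposite directions in classes of the same 2 libraries. Its log2 ratio of 3 dpi over sham was 2.87 in oligodendrocyte-like cells, -2.26 in microglia-like cells and -1.82 in precursor-like cells. With 1 library a group, the difference between these classes was not tested. No explanation was weighed.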

How the results depend on the processing

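No paired analysis was possible because each group was 1 library. For the same reason no replicate could be left out. No log2 ratio below changed its side of 0. Socs3 in microglia-like cells (-2.26) was -2.07 at resolution 2.0, -2.30 with 5% free RNA subtracted and -1.85 with median-of-ratios scaling. In precursor-like cells (-1.82) it was -1.26 at resolution 0.5, -1.24 at resolution 2.0 and -1.42 with median-of-ratios scaling. In oligodendrocyte-like cells (2.87) it was 3.61 with 5% free RNA subtracted and 3.27 with 1 CPM added, and in endothelial-like cells (0.08) it was 0.42 with median-of-ratios scaling. That scaling takes 1 value off all log2 ratios of a class before 10 CPM is added: -0.42 in microglia-like, -0.36 in endothelial-like, -0.41 in precursor-like and -0.05 in oligodendrocyte-like cells. Lower pairs numbered 14 with 1 CPM added, against 9, where low levels weigh more. Endothelial-like Osmr kept its call in 6 of 8 alternatives that left the minimum level at 20 CPM, from -1.22 to -0.70. The other member calls were kept in all of these in which the class was compared. With a 50 CPM minimum, lower pairs numbered 8. Precursor-like Lifr, at 13.9 CPM at 3 dpi and 48.2 CPM in sham, then fell out. The leukocyte-like share of Osm UMIs at 3 dpi (46.6%) was 41.9% with doublets kept, and Osmr UMIs outside leukocyte-like cells (98.6%) were 99.98% with free RNA subtracted. With doublets kept, and with 500 genes and 1000 UMIs required, the cluster of border macrophages stayed unnamed for leading genes of another class and was not compared. Depth limits Il6 and Lif, which stayed under 25 CPM in every class with 50 cells.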
